A study of Mus musculus with 2 samples.

Results

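The growth hormone and IGF-1 axis was examined here through 10 genes, *Ghr*, *Igf1*, *Igfals*, *Igfbp1*, *Igfbp2*, *Igfbp3*, *Igfbp4*, *Stat5a*, *Stat5b* and *Socs2*. Every probe set was taken whose single gene symbol in the array annotation was one of these names, which gave 28 of the 45101 probe sets on the array and 10 of the 18193 genes with a probe set of their own. The samples were whole livers from nude mice (BALB/c), which lack a thymus, taken 3 days after a 70% partial hepatectomy (day 3) or at day 0 of it. The submitters call day 3 active regeneration and day 0 the control, and both groups carry the nude background and the 70% hepatectomy in their labels. There was 1 array per day. The labels give no age or sex and do not say whether a sample was 1 animal or a pool, so time, operation and individual cannot be told apart. The differences have no replicate check and could not be tested, and the number of arrays limits the precision.

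Growth hormone from the pituitary binds its receptor on hepatocytes, which activates the kinase JAK2 and the transcription factors STAT5A and STAT5B. STAT5 drives transcription of *Igf1*, *Igfals* and the feedback inhibitors *Socs2* and *Cish*, and the liver is the main source of IGF-1 in blood. Most circulating IGF-1 travels in a complex with IGFBP3 and the acid-labile subunit encoded by *Igfals*, while IGFBP1, IGFBP2 and IGFBP4 bind it in smaller complexes, and *Igfbp1* is repressed by insulin through FoxO factors.

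The promoters of 3 genes of this axis are shown because they hold the sequence motifs through which these signals are known to act, and because their genes differed by more than 2-fold between the days. Each window, from RefSeq on GRCm38.p6, runs from 250 bases before to 50 bases after a transcript start and is written 5′ to 3′. All 3 genes lie on the plus strand. Capitals mark the STAT motif TTCNNNGAA in *Igfals* and *Cish* and the FoxO motif CAAAACA in *Igfbp1*, each searched on both strands. The *Igfals* window at chr17:24877594-24877893 is the start farthest upstream, and that at chr17:24877981-24878280 is a second annotated start. The *Cish* window is chr9:107296409-107296708 and the *Igfbp1* window chr11:7197537-7197836.
Igfals, upstream start: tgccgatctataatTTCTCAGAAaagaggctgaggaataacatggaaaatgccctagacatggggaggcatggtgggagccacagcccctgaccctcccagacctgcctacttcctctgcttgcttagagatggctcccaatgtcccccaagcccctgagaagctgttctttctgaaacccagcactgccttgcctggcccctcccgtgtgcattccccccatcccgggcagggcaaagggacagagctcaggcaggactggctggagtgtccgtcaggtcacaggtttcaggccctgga
Igfals, second start: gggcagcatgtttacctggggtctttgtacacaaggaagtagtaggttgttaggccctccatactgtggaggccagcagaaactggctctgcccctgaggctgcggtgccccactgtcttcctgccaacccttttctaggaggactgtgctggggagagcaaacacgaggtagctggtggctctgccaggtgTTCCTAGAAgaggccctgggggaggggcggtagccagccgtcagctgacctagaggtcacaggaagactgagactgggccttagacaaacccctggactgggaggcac
Cish: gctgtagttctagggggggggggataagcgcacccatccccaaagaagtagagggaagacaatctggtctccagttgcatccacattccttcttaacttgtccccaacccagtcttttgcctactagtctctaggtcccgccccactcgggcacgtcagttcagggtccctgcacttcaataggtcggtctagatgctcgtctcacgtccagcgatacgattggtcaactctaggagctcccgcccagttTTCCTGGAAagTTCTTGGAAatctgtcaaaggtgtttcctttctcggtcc
Igfbp1: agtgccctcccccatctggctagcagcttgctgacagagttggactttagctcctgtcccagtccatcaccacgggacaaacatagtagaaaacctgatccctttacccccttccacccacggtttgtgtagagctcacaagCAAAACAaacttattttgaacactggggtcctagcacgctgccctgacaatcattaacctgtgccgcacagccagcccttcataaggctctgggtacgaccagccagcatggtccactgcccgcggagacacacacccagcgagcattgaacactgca

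In the second *Igfals* window the match TTCCTAGAA began 58 bases before the start, and in the upstream window the match TTCTCAGAA began 236 bases before it. *Cish*, whose protein is an inhibitor of STAT5 signalling, held the pair TTCCTGGAA and TTCTTGGAA, of which TTCCTGGAA begins at base 251 of the window, the start itself, and TTCTTGGAA at base 262. Of the 10 genes, 9 had a promoter in the RefSeq table, with 15 windows in all, and *Socs2* was not among them. The STAT motif was in 2 of these 15 windows, both of *Igfals*, against 8.3% of 32851 windows of all genes. *Igfals* had 3 windows, and the one not shown held no match. The FoxO motif was in 1 of the 15 windows, that of *Igfbp1*, against 6.28% of all windows. The 2 windows of *Ghr*, which also differed by more than 2-fold, held neither motif. A match is a run of letters and was not tested as a binding site.

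Signals are linear MAS5 intensity values, and one probe set's level cannot be set against another's. All log2 ratios and folds are day 3 over day 0. Signals under a floor of 68.3, the higher of the array medians (68.3 at day 3 and 67.6 at day 0), were set to it, and a gene was represented by its brightest probe set and called higher or lower at 2-fold. Of the 28 probe sets, 24 were above the floor on both days, 1 at day 0 only and 3 on neither, and each of the 10 genes had at least 1 above it on both. As a yardstick, the log2 ratios of the brightest and second brightest probe sets of 1 gene had an SD of 0.44 per ratio (n = 4380 genes). Both probe sets had to be above the floor on both days. The SD was 0.50 in the lowest of 3 signal classes and 0.37 in the highest. This SD says nothing of the spread between animals.

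Of the 10 genes, 3 had at least 2-fold lower signal at day 3 (*Socs2*, *Igfals* and *Ghr*), 1 had at least 2-fold higher signal (*Igfbp1*) and 6 were within 2-fold. Among all 12634 genes analysed, 5.62% were at least 2-fold lower and 12.9% at least 2-fold higher. The median log2 ratio of the 10 genes was -0.37, against 0.08 for all genes. After scaling to the hybridisation spikes, bacterial RNAs added after labelling, the median of the 10 genes was -0.07 and that of all genes 0.36, and 2 genes were lower and 1 higher, against 3.1% and 19.6% of all genes. That scaling moves all genes by 1 factor. After loess, which does not, the median of the 10 genes was -0.09 and that of all genes 0.05, and after quantile normalisation they were -0.04 and 0.003, so the list's median then lay close to that of all genes. By role, the receptor, the STAT5 feedback inhibitor and the subunit of the large IGF-1 complex were lower. The hormone itself was within 2-fold, and a single binding protein was higher. The count of 1 higher gene in 10 was near the 12.9% of all genes, so the genes are described singly.

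**Figure D1:**
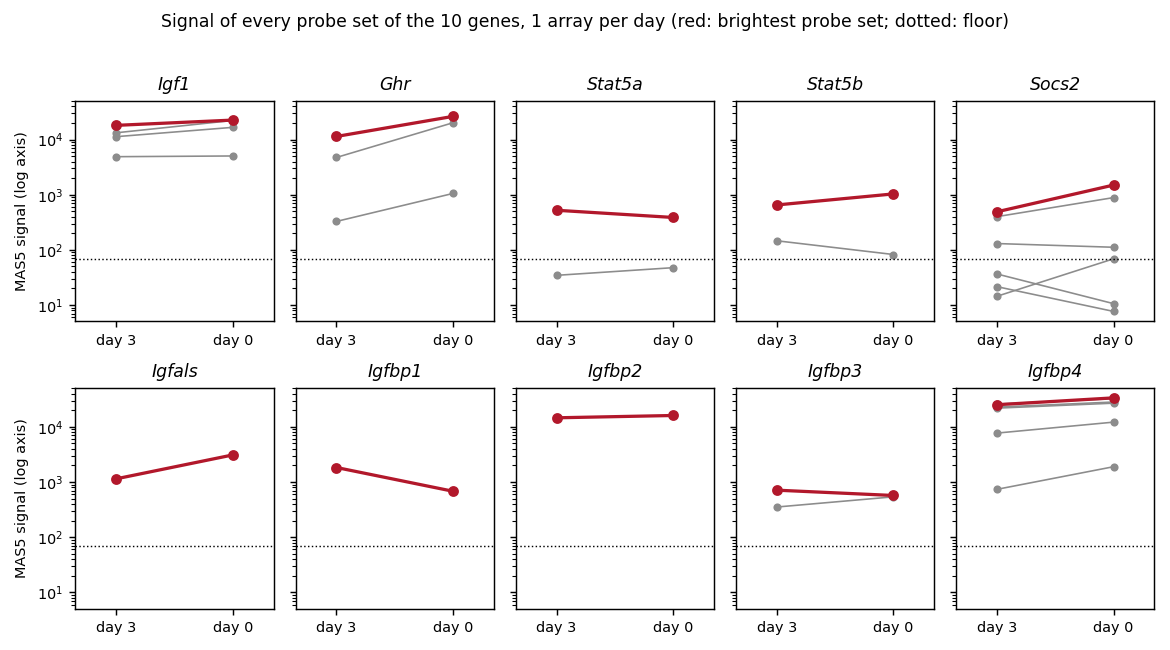
MAS5 signal on a log axis (vertical) at day 3 and day 0 (horizontal) for all 28 probe sets of the 10 genes, with 1 array per day, the brightest probe set of each gene in red, the others in grey and the floor of 68.3 dotted. All 3 probe sets of *Ghr* and the single one of *Igfals* were lower at day 3, that of *Igfbp1* was higher, and those of *Igf1* and *Igfbp2* stayed within 2-fold.

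*Igf1*, which encodes the hormone, had 4 probe sets, all above the floor on both days. Its brightest probe set read 18090 at day 3 and 22545 at day 0, a log2 ratio of -0.32, which is smaller than the SD between probe sets of 1 gene. The second read 13267 at day 3 and 22202 at day 0 (-0.74), the third 11286 at day 3 and 16650 at day 0 (-0.56), and the dimmest 4892 at day 3 and 5040 at day 0 (-0.04). All 4 were below 0 and none reached 2-fold, and the ratio of the brightest lay between -0.07 and -0.03 with loess, quantile normalisation or spike scaling. The share of all genes with a lower ratio was 25.3%.

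*Ghr* encodes the growth hormone receptor and, by alternative splicing in mice, a soluble binding protein. Its brightest probe set read 11380 at day 3 and 26316 at day 0, 2.31-fold lower. Another read 4738 at day 3 and 20196 at day 0, 4.26-fold lower, and the dimmest 328.0 at day 3 and 1056 at day 0, 3.22-fold lower. All 3 were thus at least 2-fold lower, with log2 ratios of -1.21, -2.09 and -1.69. Which of them read the receptor and which the soluble form was not analysed here. All 3 carry the suffix _s or _a for shared transcripts, so *Ghr* had no value in the setting without such probe sets. The brightest gave the smallest difference, and its ratio of -0.97 after quantile normalisation, -0.97 after loess and -0.92 after spike scaling was just within 2-fold. For *Ghr* 3.60% of all genes had a lower ratio. As background to this and the other lower values, spiked poly-A RNAs, which go through the labelling, read lower at day 3 at their 5′ ends. The median log2 ratio was -1.20 there and -0.12 at their 3′ ends, and the 5′ ratio was the lower in 8 of 8 probe set pairs. Different pairs read the same spiked RNA, so they are not independent. Their 3′ to 5′ signal ratio was from 1.32-fold to 2.90-fold higher at day 3. Where the probe sets lie along the transcripts of *Ghr* and the other genes was not analysed, so the part of this imbalance in the result was not tested.

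The signal transducers showed smaller differences, with probe sets at odds for *Stat5b*. *Stat5a* read 522.5 at day 3 and 386.9 at day 0 on its brightest probe set, a log2 ratio of 0.43, and its other probe set was under the floor on both days. *Stat5b*, the form best known for growth hormone action in liver, read 652.3 at day 3 and 1034 at day 0, a ratio of -0.66. Its dimmer probe set went the other way, at 146.2 at day 3 and 82.5 at day 0, a ratio of 0.83. The signal of this probe set at day 0 was close to the floor, and the mean over both was 0.08, so no direction can be given for *Stat5b*. These genes are neighbours on chromosome 11 in RefSeq with 0 protein-coding genes between them. The gap of 1.10 on the log2 scale between the brightest probe sets of *Stat5a* and *Stat5b*, which no rescaling of an array by 1 factor can alter, therefore rests on probe sets that differ by more than this within *Stat5b* alone.

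*Socs2* encodes a STAT5-induced inhibitor of growth hormone receptor signalling, and mice without it grow larger than normal. Its brightest probe set read 490.4 at day 3 and 1497 at day 0, 3.05-fold lower, the lowest ratio of the 10 genes (-1.61). The next read 400.3 at day 3 and 886.9 at day 0, 2.22-fold lower. Both of these probe sets thus passed 2-fold. A dim probe set read 130.3 at day 3 and 111.6 at day 0, a ratio of 0.22, and the remaining 3 were under the floor on at least 1 day, with signals from 14.4 to 36.6 at day 3 and from 7.66 to 68.9 at day 0. The mean ratio was -0.84 over the 3 probe sets above the floor on both days and -0.64 with the one above it at day 0 only, within 2-fold either way. The share of all genes with a lower ratio than *Socs2* was 1.5%.

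*Igfals*, the acid-labile subunit made by hepatocytes, had 1 probe set, which read 1144 at day 3 and 3101 at day 0. This was 2.71-fold lower, a ratio of -1.44, and 2.20% of all genes had a lower one. It stayed past 2-fold in all 10 alternative settings that gave it a value, between -1.46 and -1.15. With a single probe set well above the floor, other floors and other choices of probe set could hardly move it. The settings that could gave -1.46 (quantile normalisation), -1.43 (loess) and -1.15 (spike scaling). Relative to *Igf1*, its partner in the large complex, *Igfals* was lower by a log2 gap of -1.12, and relative to *Ghr* the gap was -0.23, under the SD between probe sets. *Igfals* is one of the genes whose promoter windows with a STAT motif are printed above.

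**Figure D2:**
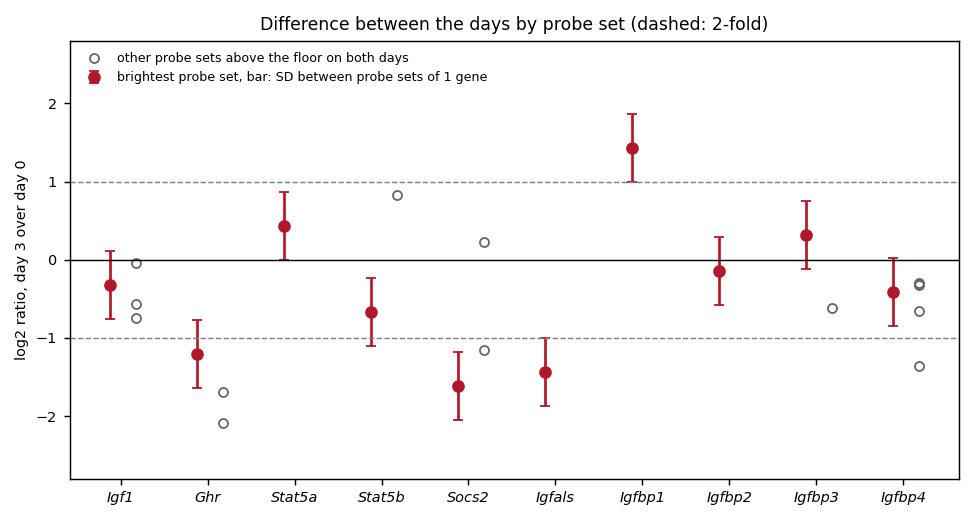
Log2 ratio of day 3 over day 0 (vertical) for each of the 10 genes (horizontal), with the brightest probe set in red, other probe sets above the floor on both days as open circles, and dashed lines at 2-fold. The bar on the red point is the SD of 0.44 between probe sets of 1 gene and not an error between animals. *Stat5b*, *Igfbp3* and *Socs2* have probe sets on both sides of 0, while those of *Ghr* and *Igf1* lie below it.

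The 4 binding proteins differed from one another. *Igfbp1*, which binds IGF-1 in the circulation and is known as an early gene of liver regeneration in rats, read 1833 at day 3 and 679.8 at day 0. It was 2.70-fold higher, a ratio of 1.43, and 92.9% of all genes had a lower one. It was past 2-fold in all 10 alternative settings that gave it a value, from 1.34 to 1.72. Most of these settings could hardly move a single probe set well above the floor. Those that could gave 1.34 (quantile normalisation), 1.39 (loess) and 1.72 (spike scaling). It had 1 probe set, so no second one was at hand as a check.

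*Igfbp3*, which carries most IGF-1 in blood and in rat liver is made by cells other than hepatocytes, lies next to *Igfbp1* on chromosome 11 with 0 protein-coding genes between them. Its brightest probe set read 711.5 at day 3 and 570.0 at day 0 (0.32), and its other one 352.2 at day 3 and 539.0 at day 0 (-0.61). The probe sets went opposite ways, and the gap between *Igfbp1* and the brightest *Igfbp3* probe set was 1.11 on the log2 scale. *Igfbp2*, a binding protein of the fetal and adult liver, read 14594 at day 3 and 16072 at day 0 on its only probe set. Its ratio of -0.14 was under the SD between probe sets and was above 0 with loess (0.08), quantile normalisation (0.07) and spike scaling (0.15). Its neighbour *Igfbp5* on chromosome 1 had a ratio of -0.30.

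*Igfbp4*, which restrains IGF-1 and is cleaved by the protease PAPP-A, had 6 probe sets, all below 0. The brightest read 25189 at day 3 and 33524 at day 0 (-0.41). The 3 next brightest ranged from -0.32 to -0.30, and a dimmer one read 7709 at day 3 and 12178 at day 0 (-0.66). The dimmest read 737.1 at day 3 and 1895 at day 0, 2.57-fold lower, and alone passed 2-fold. The ratio of the brightest was -0.01 after quantile normalisation and -0.12 after loess and after spike scaling.

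**Figure D3:**
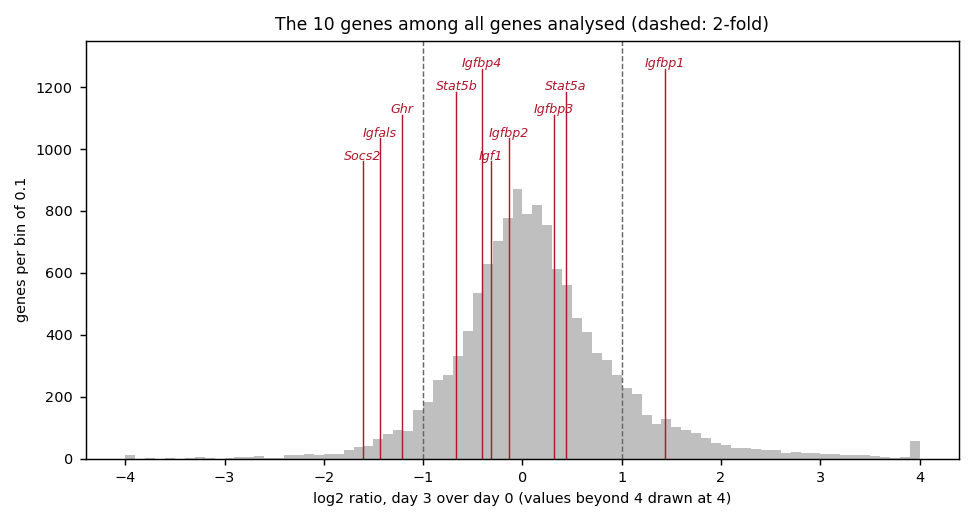
Histogram of the log2 ratio of day 3 over day 0 (horizontal) for the 12634 genes analysed, in genes per bin (vertical), with the 10 genes as red lines and dashed lines at 2-fold. *Socs2*, *Igfals* and *Ghr* stand in the lower tail and *Igfbp1* in the upper one, and the other 6 lie in the body of the distribution.

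Of 42 other genes of growth hormone, IGF and insulin signalling, 38 had a probe set with 1 symbol and 32 were above the floor on at least 1 day. Of these 32, 4 were at least 2-fold higher at day 3, 2 at least 2-fold lower and 26 within 2-fold, with a median of 0.10. Set against 12.9% higher and 5.62% lower among all genes, these counts were near the background, and the genes named next are described singly. After spike scaling 5 were higher and 0 lower, against 19.6% and 3.1% of all genes, while median centring, quantile normalisation and loess each gave 4 higher and 2 lower. Growth hormone itself and its releasing hormone receptor *Ghrhr* were among the 6 genes under the floor on both days.

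The lower genes were *Cish* and *Insr*. *Cish* read 695.1 at day 3 and 1432 at day 0, 2.06-fold lower, on the same side as *Socs2*. *Insr*, the insulin receptor, read 1803 at day 3 and 3728 at day 0, 2.07-fold lower. Both were within 2-fold after spike scaling (-0.75 and -0.76) and only 1 probe set of each was above the floor on both days; a dim *Insr* probe set read 15.6 at day 3 and 116.3 at day 0. *Jak2*, the kinase bound to the growth hormone receptor, read 455.2 at day 3 and 638.5 at day 0 (-0.49), with its other probe set at -0.42.

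Of the higher genes, *Grb10*, an adaptor that inhibits insulin and IGF-1 receptors, read 1065 at day 3 and 337.6 at day 0, 3.15-fold higher. All other *Grb10* probe sets were under the floor on both days. *Socs3*, the feedback inhibitor of interleukin 6 signalling, read 1070 at day 3 and 471.1 at day 0, 2.27-fold higher, with its other probe sets at 1.58 and 1.89. The log2 gap between *Socs3* and *Socs2*, members of the same inhibitor family, was 2.79. *Ptpn1*, a phosphatase of JAK2 and of the insulin receptor, read 1286 at day 3 and 580.5 at day 0, 2.22-fold higher, with another probe set at 0.55. *Igf2*, the fetal growth factor, read 174.1 at day 3 and 25.4 at day 0, below the floor, so its signal was at least 2.55-fold higher. The other *Igf2* probe set was under the floor on both days. *Igf1r*, the IGF-1 receptor, which adult hepatocytes are known to express at low levels, read 195.6 at day 3 and 145.3 at day 0 (0.43). It had no other probe set above the floor on both days, and those above it on 1 day went both ways, from at least 1.18-fold lower to at least 1.84-fold higher.

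**Figure D4:**
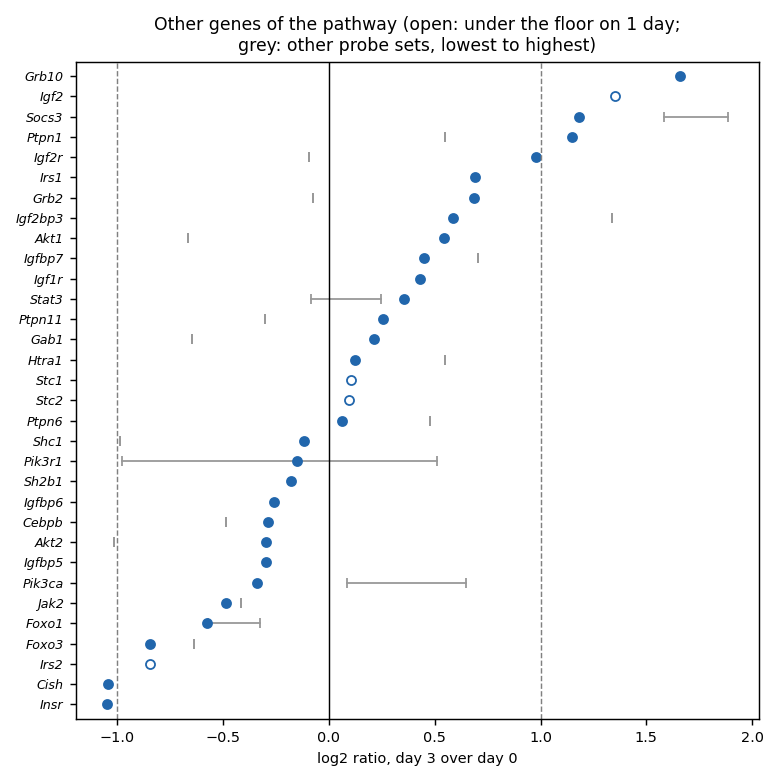
Log2 ratio of day 3 over day 0 (horizontal) for the 32 other pathway genes (rows), with dashed lines at 2-fold. The brightest probe set is a blue point, open where the gene was under the floor on 1 day. Grey marks the range of the gene's other probe sets above the floor on both days. *Grb10* is at the top with 3.15-fold and *Insr* and *Cish* are at the bottom, just past 2-fold.

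The tissue label was checked against marker genes. All 6 hepatocyte markers were above the floor on both days and within 2-fold on their brightest probe sets (median -0.36, summed signal 193980 at day 3 and 255450 at day 0). The sums add the brightest probe set of each marker and are led by the brightest of them. In bulk tissue fewer cells of a type and less RNA per cell cannot be told apart. Beside that median stand the ratios of -0.32 for *Igf1* and -0.41 for *Igfbp4*, and those of *Ghr*, *Igfals* and *Socs2* were lower than the brightest probe set of each of the 6 markers. Another probe set of the marker *Hnf4a* read 903.8 at day 3 and 3364 at day 0 (-1.90), lower than the brightest probe set of each of these 3 genes. All 8 Kupffer cell markers were above the floor on both days and 5 were at least 2-fold higher at day 3 (summed signal 14214 at day 3 and 6105 at day 0). Of 8 stellate cell markers 6 were above the floor on both days, and 4 of these were at least 2-fold higher (sum over all 8, 29560 at day 3 and 10603 at day 0). Of 5 cholangiocyte markers 2 were above the floor on both days, 1 of them 2-fold higher, and 2 at day 3 only (sum over these 4, 1042 at day 3 and 274.8 at day 0). Of 7 leukocyte markers 2 were above the floor on both days, both 2-fold higher, and 1 at day 3 only (sum over these 3, 2170 at day 3 and 503.8 at day 0), while *Cd3e* and *Cd79a* were under the floor on both days. The 6 sinusoidal endothelial markers were within 2-fold (sum 5298 at day 3 and 7265 at day 0), from -0.70 for *Clec4g* to 0.96 for *Pecam1*, and *Alas2*, an erythroid marker, read 2783 at day 3 and 8932 at day 0. No marker was at 0 on either day, and the part of cell composition was not tested for any of the 10 genes. Since growth hormone action in liver differs between male and female mice, genes of the sex chromosomes were read as well. The Y-linked *Eif2s3y* read 1126.5 at day 3 and 1386 at day 0 and *Kdm5d* 337.3 at day 3 and 415.4 at day 0. *Uty*, also Y-linked, read 310.2 at day 3 and 216.1 at day 0 on its brightest probe set. *Xist*, made by the inactive X chromosome, read at most 79.6 at day 3 and 62.2 at day 0, close to the floor. Both samples thus held RNA of Y-linked genes.

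**Figure D5:**
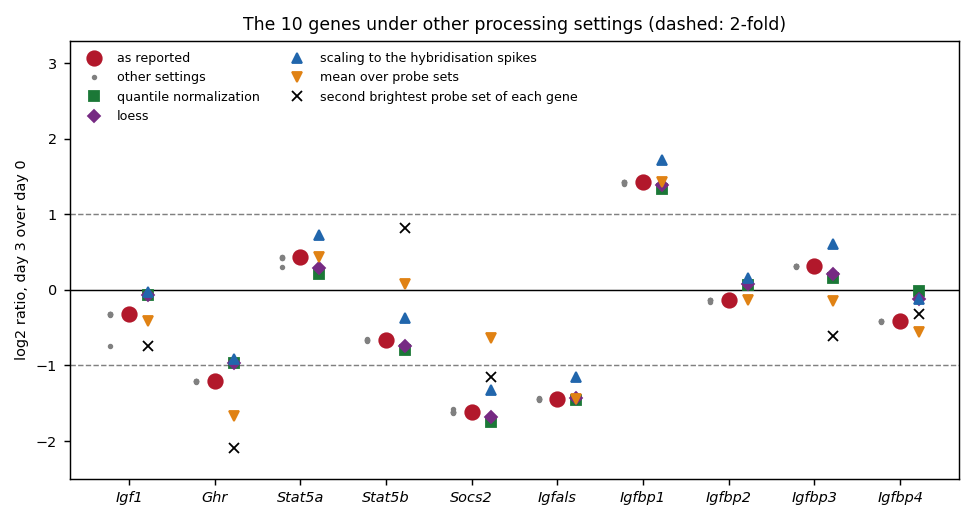
Log2 ratio of day 3 over day 0 (vertical) for the 10 genes (horizontal) as reported (red) and under other processing settings, with dashed lines at 2-fold. *Igfals* and *Igfbp1* stay outside the dashed lines under each setting drawn, *Ghr* lies just inside with loess, quantile normalisation and spike scaling, *Socs2* lies inside with the mean over probe sets, and *Stat5b*, *Igfbp2* and *Igfbp3* change side of 0 under at least 1 setting.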

How the data were processed

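Total RNA was extracted from whole liver with Trizol and 5 µg was made into biotinylated cRNA for an Affymetrix mouse array, per the labels' protocols. The deposited values are linear probe set intensity values made with GCOS and MAS5, per the submitters' processing notes. Their versions and scaling target were not found in the labels. MAS5 subtracts mismatch signal, so low signals are noisy. Of 45101 probe sets, 64 controls were left out and 34945 had 1 gene symbol in the array annotation; all 10 symbols matched the RefSeq table by Entrez ID. The values name no genome build, so only promoter windows carry coordinates.

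Signals were floored at 68.3, log2 was taken, and the probe set brightest on average (mean log2 signal) stood for its gene, which left 12634 genes. With 1 array per day no test was run. Alternatives were quantile normalisation, median centring, loess (fraction 0.3, fitted above the floor), scaling to 18 hybridisation spike probe sets, floors at the 25th and 75th percentile, no floor with 16 added, only genes above the floor on both days, the mean over probe sets, no probe sets with the suffixes _s, _x or _a (shared transcripts), and thresholds of 1.5-fold and 4-fold. The second brightest probe set was added after seeing the data. The members, the list of other pathway genes and the markers were chosen with earlier results of these data known. All members were named, and of the other pathway genes those past 2-fold plus *Jak2*, *Igf1r*, *Insr*, *Cish*, *Socs3* and *Igf2*; *Igfbp5*, *Ghrhr* and growth hormone were added after their values were seen. The steps were tested on simulated data, a copy of the day 0 array with differences put into bright genes. All of these differences were well past 2-fold. The test thus did not cover dim genes that differ or differences close to 2-fold. Python 3.11.15, numpy 2.4.6, pandas 2.3.3, statsmodels 0.14.6 and matplotlib 3.10.9 were used.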

Additional observations from a re-analysis of the deposited data

How the results depend on the processing

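The 3 lower and 1 higher genes of the axis numbered 0 and 0 at a 4-fold threshold, and 4 and 1 at 1.5-fold. After quantile normalisation 2 were lower and 1 higher, against 7.25% and 10.2% of all genes. Loess gave the same counts, against 6.24% and 11.4%, and so did spike scaling, against 3.1% and 19.6%. The mean over probe sets also gave 2 lower and 1 higher. With the second brightest probe set, which only 6 of the 10 genes had, 2 were lower and 0 higher (*Igfbp1* had none). The 4 higher of the other pathway genes numbered 2 without shared probe sets, 2 with the second brightest probe set, 7 at 1.5-fold and 0 at 4-fold. The 2 lower ones numbered 0 after spike scaling, 4 with no floor, 4 with the 25th percentile as floor, 1 with the mean over probe sets, 1 with the second brightest probe set, 4 at 1.5-fold and 0 at 4-fold. Fewer genes are measured with the second brightest probe set or without shared ones. More of the other pathway genes are measured with the 25th percentile as floor (37) or no floor (38) than with the main floor (32). A change of threshold alters counts by definition. For the remaining settings the cause was not tested. No share of all genes was set beside the counts at other thresholds, other floors or other choices of probe set. Those counts thus cannot be judged against a background and are not results about the genes. The median of the 10 genes lay between -0.38 and -0.04 in the 9 alternatives that measured all of them, was -0.74 over the 5 genes left without shared probe sets and -0.68 over the 6 with a second probe set. *Igfals* and *Igfbp1* stayed past 2-fold in 10 of 10 alternatives, *Socs2* in 10 of 11 and *Ghr* in 7 of 10. Several alternatives, such as other floors, could hardly change genes well above the floor, so these counts do not measure robustness. The exceptions were quantile normalisation, loess and spike scaling for *Ghr* and the mean over probe sets for *Socs2*. Among all genes, higher ones made up 69.6% of those past 2-fold, 58.5% after quantile normalisation, 64.6% after loess and 86.3% after spike scaling. Signals near the floor, such as those of the dimmer *Stat5b* and *Socs2* probe sets, are the least precise. No paired analysis was possible because there was 1 array per day and no test.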
